A study of Mus musculus with 4 samples.

Results

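The subject is 10 mouse genes for neutrophil granule proteins and other myeloid effectors, Mpo, Elane, Prtn3, Ctsg, Ltf, Camp, Lyz2, S100a8, S100a9 and Ms4a3, out of 21887 protein-coding genes on chromosomes 1 to 19, X and Y. The genes were fixed by name and all 10 were found in the RefSeq gene table. Chromatin was profiled by CUT&Tag with a Ruvbl2 antibody in 2 libraries of leukaemia stem cells (LSC) and 2 of haematopoietic stem cells (HSC), all from bone marrow of mice with the genotype Nup214fl/+. The LSC were gated as Lin-, Sca-1-, c-Kit+, CD16/32+ and CD34+ and came from mice whose leukaemia was driven by MLL-AF9, and the HSC were gated as CD48-, CD150+ LSK cells from mice with no leukaemia named. The labels name no Cre, age or sex, they do not say whether the 2 libraries of a group came from separate animals, and they call the cell type of all 4 libraries haematopoietic stem cell, so the groups rest on the sample titles. The LSC gate is also that of the granulocyte-monocyte progenitor, so leukaemia and maturation differ together between the groups and cannot be told apart. No library made without this antibody was analysed here, so a peak is described as a peak in this assay and not as a shown Ruvbl2 site. The labels name an anti-rabbit secondary antibody and not the host of the Ruvbl2 antibody, and how far the signal depends on that antibody was not tested.

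Neutrophils pack their granules in the order in which the proteins are made. Promyelocytes, which follow the granulocyte-monocyte progenitor, make the primary or azurophil granule proteins: myeloperoxidase (Mpo) and the serine proteases neutrophil elastase (Elane), proteinase 3 (Prtn3) and cathepsin G (Ctsg). Myelocytes later make the secondary or specific granule proteins, among them the iron-binding lactoferrin (Ltf) and the precursor of the antimicrobial peptide cathelicidin (Camp). Lyz2 encodes the lysozyme of neutrophils and macrophages, S100a8 and S100a9 encode the subunits of calprotectin, a calcium-binding protein of the neutrophil cytosol, and Ms4a3 encodes a membrane protein of granulocyte-monocyte progenitors. Ruvbl2 is an ATPase of several chromatin remodelling complexes.

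Each library had its own peak list, with 213978 and 208855 peaks in LSC replicates 1 and 2 against 159842 and 284974 in HSC replicates 1 and 2. Read totals were not given, so depth is unknown, and folds and ranks are values within a library that were not compared in size between libraries. The replicate 1 libraries stood apart from the replicate 2 libraries: peaks on the Y chromosome numbered 94.2 and 1.24 per 10000 in LSC replicates 1 and 2 and 91.8 and 0.561 in HSC replicates 1 and 2, and the shortest peak had 180 and 281 bp in LSC and 224 and 291 bp in HSC. A gene's window was its body with 10 kb on each side, and a gene is called listed in a library when one of the 20000 strongest peaks of that library reached into the window. By this rule 44.3% and 52.0% of all protein-coding genes were listed in LSC replicates 1 and 2, against 42.2% and 51.8% in HSC replicates 1 and 2. The marker counts that follow are to be read against these shares. Of the marker genes of the gates, HSC markers were listed in 4 and 4 of 7 cases in LSC replicates 1 and 2, against 3 and 2 in HSC replicates 1 and 2, and markers of LSC or granulocyte-monocyte progenitors in 5 and 4 of 7, against 4 and 5. Ly6a, which encodes the Sca-1 antigen that the LSC gate excludes, was listed in both LSC and neither HSC library, though in HSC replicate 2 its peak (rank 20035) missed the list by the order of ties alone. Kit was listed in both HSC and neither LSC library. Both genes were picked after their values were seen, and their patterns held for 2.88% (LSC only) and 2.29% (HSC only) of all protein-coding genes. B cell markers were listed in 3 and 3 of 4 cases in LSC against 1 and 1 in HSC, T cell markers in 3 and 3 of 4 against 2 and 2, erythroid markers in 2 and 1 of 4 against 1 and 1, and megakaryocyte markers in 0 and 4 of 4 against 1 and 3. Their part in the results below was not tested.

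The promoters that the results turn on are printed first, as the 250 bases before the start site in RefSeq's GRCm38.p6 table, which has the coordinates of mm10. They are those of the primary and secondary granule genes and of S100a9, the other gene with a peak at its own promoter. Promoters of Mpo (chr11:87793534-87793783), Elane (chr10:79886062-79886311), Prtn3 (chr10:79879417-79879666) and Ltf (chr9:111019042-111019291) lie on the plus strand, and those of Ctsg (chr14:56102575-56102824), Camp (chr9:109849457-109849706) and S100a9 (chr3:90695722-90695971) on the minus strand. Capitals mark GAGGAAG, a form of the site of PU.1, and AACGG, a form of the site of MYB, on either strand.
Mpo: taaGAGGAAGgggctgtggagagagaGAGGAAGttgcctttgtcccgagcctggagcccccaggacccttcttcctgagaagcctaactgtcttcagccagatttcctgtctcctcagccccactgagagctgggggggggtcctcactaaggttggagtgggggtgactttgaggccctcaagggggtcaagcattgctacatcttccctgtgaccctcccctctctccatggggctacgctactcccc
Elane: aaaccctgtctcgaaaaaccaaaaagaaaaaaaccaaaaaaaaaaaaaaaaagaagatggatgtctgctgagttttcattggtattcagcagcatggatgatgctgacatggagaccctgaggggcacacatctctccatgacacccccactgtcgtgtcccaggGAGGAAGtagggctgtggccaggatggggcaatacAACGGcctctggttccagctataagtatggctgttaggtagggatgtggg
Prtn3: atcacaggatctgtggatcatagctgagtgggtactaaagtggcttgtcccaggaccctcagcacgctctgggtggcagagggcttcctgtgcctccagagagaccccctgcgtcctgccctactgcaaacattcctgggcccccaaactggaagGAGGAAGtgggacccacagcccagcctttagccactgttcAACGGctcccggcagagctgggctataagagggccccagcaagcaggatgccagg
Ctsg: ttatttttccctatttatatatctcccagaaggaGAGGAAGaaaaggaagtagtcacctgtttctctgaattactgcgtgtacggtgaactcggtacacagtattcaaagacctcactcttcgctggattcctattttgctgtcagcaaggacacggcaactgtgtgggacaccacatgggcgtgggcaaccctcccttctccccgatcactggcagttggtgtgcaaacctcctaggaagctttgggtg
Ltf: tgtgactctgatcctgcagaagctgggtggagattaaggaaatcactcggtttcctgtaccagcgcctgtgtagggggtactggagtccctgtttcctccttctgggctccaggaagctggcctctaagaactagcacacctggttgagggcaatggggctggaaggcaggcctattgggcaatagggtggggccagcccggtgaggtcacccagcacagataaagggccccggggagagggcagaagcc
Camp: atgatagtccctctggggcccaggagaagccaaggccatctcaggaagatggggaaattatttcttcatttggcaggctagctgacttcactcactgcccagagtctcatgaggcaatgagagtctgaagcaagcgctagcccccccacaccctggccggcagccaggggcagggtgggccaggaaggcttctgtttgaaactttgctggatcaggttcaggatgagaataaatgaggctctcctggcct
S100a9: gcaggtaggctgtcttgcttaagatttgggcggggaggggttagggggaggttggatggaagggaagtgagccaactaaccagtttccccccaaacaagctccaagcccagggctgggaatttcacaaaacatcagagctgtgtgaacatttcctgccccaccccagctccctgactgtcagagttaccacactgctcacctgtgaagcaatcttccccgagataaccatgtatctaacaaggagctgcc

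The match GAGGAAG was present before all 4 primary granule genes and neither of the 2 secondary granule genes, and in 1 of the 4 other genes (S100a8), against 9.94% of 17492 promoters of this length. It lay from -247 to -241 and from -224 to -218 bp at Mpo, from -85 to -79 bp at Elane, from -95 to -89 bp at Prtn3 and from -216 to -210 bp at Ctsg, relative to the start site. Elane and Prtn3, neighbours on chromosome 10, shared a layout of GAGGAAG followed by AACGG (from -50 to -46 and from -55 to -51 bp) and TATAA (from -31 to -27 and from -32 to -28 bp). AACGG was found in 16.2% of all promoters and TATAA in 21.3%. A form of the C/EBP site, TTNNGNAA, was present in 0 of 4 primary, 1 of 2 secondary (Ltf) and 4 of 4 other genes, against 34.7% of all promoters. TGTGGT, a form of the RUNX site, was present in Ctsg, Lyz2 and S100a9 and in 12.5% of all promoters, and the GC box GGGCGG in S100a9 alone of the 10 and in 42.6% of all promoters. All motifs were searched on both strands, the matches of different motifs did not overlap, and they are descriptions of letters and not shown binding sites.

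All 4 primary granule genes were listed in both LSC libraries and HSC replicate 2, and 3 of the 4 in HSC replicate 1, where Mpo was missing. Secondary granule genes were listed in both replicate 1 libraries and in neither replicate 2 library, in LSC and HSC alike. Over all 10 genes, 8 and 5 were listed in LSC replicates 1 and 2, where 44.3% and 52.0% of all protein-coding genes were, against 6 and 5 in HSC replicates 1 and 2, where 42.2% and 51.8% were. The mean was 6.5 ± 2.12 genes in LSC and 5.5 ± 0.707 in HSC (SD, n = 2 libraries each), a difference of 1 gene that is smaller than the spread between the LSC libraries. It was -0.5 without LSC replicate 1 and 2.5 without LSC replicate 2, and 2.5 with the 10000 and -1.5 with the 40000 strongest peaks of each library. In an exact two-sided permutation test the 4 libraries cannot give a p below 0.333, so that test cannot pass 0.05 for any comparison of LSC with HSC. Because the 10 genes are short (964 to 23475 bp), shares among the 11383 protein-coding genes of that length range are closer to them: 35.8% and 48.9% in LSC replicates 1 and 2 and 33.7% and 48.7% in HSC replicates 1 and 2.

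Elane, Prtn3 and Ctsg were listed in all 4 libraries, as were 18.1% of all protein-coding genes and 13.6% of those of the length range. Elane and Prtn3 share most of their windows and of their peaks, so these 3 genes make 2 loci. With both LSC libraries and neither HSC library there were 0 of the 10 genes, where 2.88% of all genes had this pattern, and with both HSC libraries and neither LSC library there were also 0, where 2.29% did. The pattern of both replicate 1 libraries and neither replicate 2 library, which 2.51% of all genes showed, held for 2 of the 10, Ltf and Camp. Peaks of any strength were too common to tell genes apart: 93.9% and 93.9% of all genes had one in LSC replicates 1 and 2, 90.8% and 95.5% in HSC replicates 1 and 2, and 83.0% in all 4, against 8 of the 10 genes in all 4. The exceptions were Camp and Ms4a3, which had no peak in the window in LSC replicate 2.

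**Figure D1:**
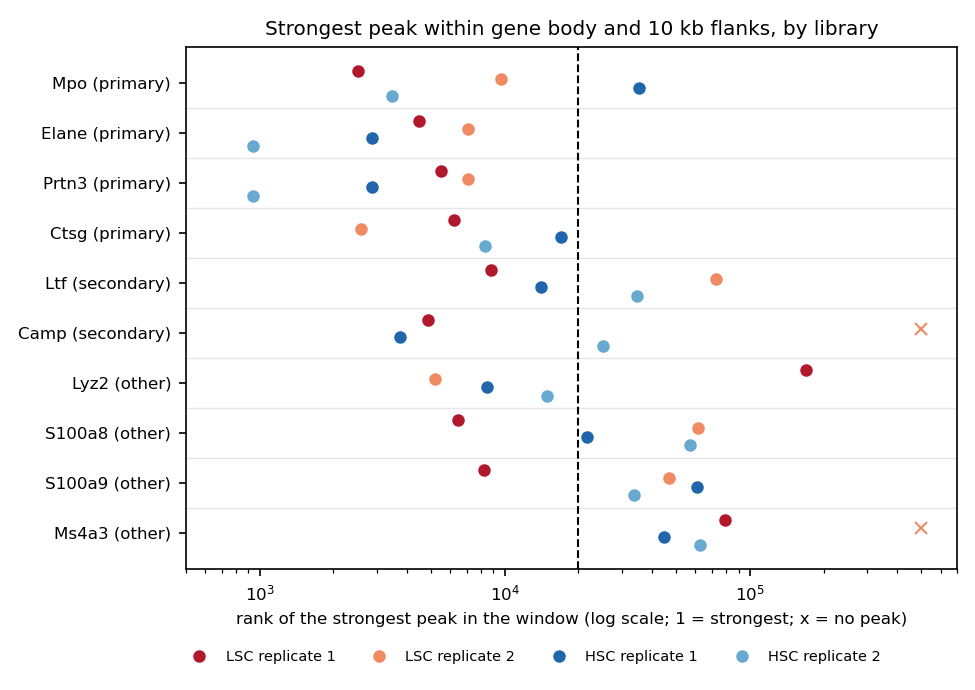
Rank of the strongest peak in each gene's window (log scale, 1 is the strongest of the library) for the 10 genes in each of the 4 libraries, with the dashed line at rank 20000 and a cross where the window held no peak. Points of the primary granule genes lie left of the line but for Mpo in HSC replicate 1 (rank 35169), and those of Ltf and Camp lie left of it in the replicate 1 libraries alone.

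Prtn3 (chromosome 10, 79879667 to 79883174) and Elane (79886312 to 79888216) encode related proteases and had the densest peaks of the 10 genes. Peaks of any strength covered 16.3% and 28.6% of the Elane window in LSC replicates 1 and 2, against 16.3% and 42.0% in HSC replicates 1 and 2. The Prtn3 window was covered to 18.3% and 23.1% in LSC, against 21.4% and 41.6% in HSC. The median of all protein-coding genes was 3.85% and 5.74% in LSC replicates 1 and 2 and 3.06% and 7.93% in HSC replicates 1 and 2. Among genes of the members' length range it was higher, at 4.16% and 7.25% in LSC and 3.42% and 9.80% in HSC. The shares that follow were taken over all protein-coding genes alone. Of all protein-coding genes, 96.9% to 99.9% had a smaller covered share than Prtn3 in the 4 libraries, and 98.7% to 99.6% had a smaller one than Elane. The gene neighbourhood is dense, and some of these peaks overlap the bodies of Plppr3, Cfd and Med16.

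One region of this locus was listed in all 4 libraries. It spans 79876806 to 79878570, from -2861 to -1097 bp of the Prtn3 start site, between Plppr3 and Prtn3. The strongest peak there had a fold of 38.6 (rank 10944) in LSC replicate 1 and 20.3 (rank 13644) in LSC replicate 2, against 47.6 (rank 2876) in HSC replicate 1 and 33.3 (rank 939) in HSC replicate 2, where fold is the summit pileup over the library's own background. Recovered from those folds, the pileup at the summits was 210 and 95 fragments or reads in LSC replicates 1 and 2, against 173 and 177 in HSC replicates 1 and 2. The summits spread over 1191 bp, so there was no common summit. The listed peak of HSC replicate 1 began at 79877922, while those of LSC replicate 1 and HSC replicate 2 ended at 79877930. The 4 listed peaks thus had only a few bases in common. Most of the sequence shared by all 4 libraries there lay in an unlisted peak of HSC replicate 1 (fold 8.47, rank 127914). In both HSC libraries this was the strongest peak of the Elane and Prtn3 windows, while the strongest lay elsewhere in LSC.

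Downstream, a chain of overlapping peaks from +1794 to +5875 bp of the Prtn3 start site, which runs from the 3′ part of Prtn3 to before Elane, was present in all 4 libraries and listed in 3. Its strongest peaks had folds of 21.2 (rank 11716) in LSC replicate 2, 35.0 (rank 8279) in HSC replicate 1 and 19.1 (rank 4303, a peak 3078 bp wide) in HSC replicate 2, and it was not listed in LSC replicate 1. Within the Prtn3 body, a region from +370 to +1207 bp held peaks in LSC replicate 2 (fold 18.2, rank 19934, level with the weakest listed peak), HSC replicate 1 (unlisted) and HSC replicate 2 (fold 20.0, rank 3687). Peaks at +6206 to +6923 bp of the Elane start site were listed in both replicate 2 libraries, with folds of 24.1 in LSC and 20.4 in HSC. They overlapped Cfd, which encodes complement factor D, but their summits lay outside its body.

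**Figure D2:**
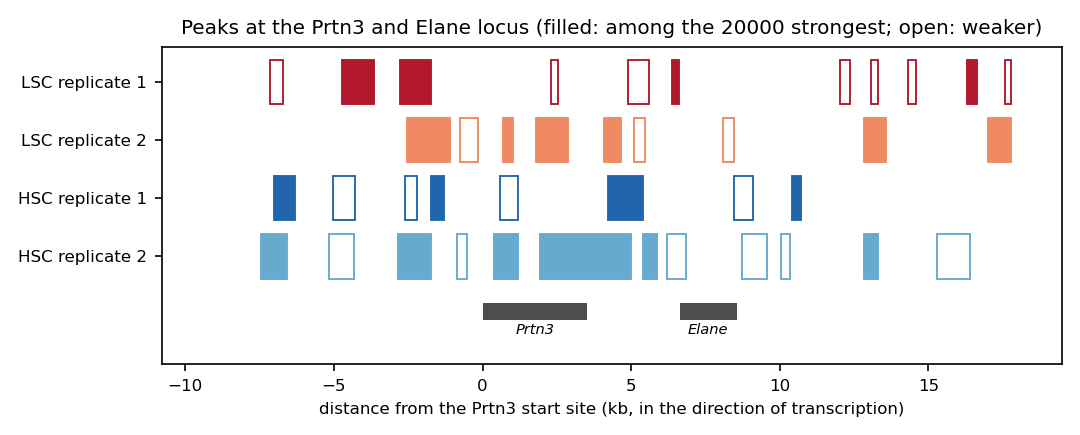
Peaks of the 4 libraries along the Prtn3 and Elane locus by distance from the Prtn3 start site (kb), filled where among the 20000 strongest of the library and open where weaker, with gene bodies as grey bars. Filled boxes stand before Prtn3 in every library, and a filled box stands at the Elane start in LSC replicate 1 alone.

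Peaks over the promoters themselves were few among the 10 genes, as they were among all genes. Of the 10 genes, 2 and 4 had a peak of any strength over the 300 bases around the start site (250 before, 50 after) in LSC replicates 1 and 2, where 16.7% and 33.0% of genes had one, against 1 and 3 in HSC replicates 1 and 2, where 13.6% and 35.2% had one. Those that were listed numbered 2 and 1 in LSC, beside 6.34% and 19.9% of all genes, and 1 and 1 in HSC, beside 5.73% and 19.8%. Of the 10, 0 had a promoter peak in all 4 libraries, as 4.33% of genes did. At Elane, LSC replicate 1 had a peak of fold 56.6 (rank 5513, pileup 308) from -263 to -32 bp. Its summit at -83 bp falls within the GAGGAAG match printed above. HSC replicate 2 had an unlisted one there of fold 7.11 (rank 101666, pileup 37, summit at -33 bp), and LSC replicate 2 and HSC replicate 1 had none. At Prtn3 the promoter was reached by the edge of a weak peak of LSC replicate 2 (fold 8.26, from -764 to -167 bp) and by no other. Among promoter peaks of the primary granule genes, the Elane peak of LSC replicate 1 alone had its summit in a GAGGAAG match. The other summits lay at -33 bp at Elane, -268 bp at Prtn3, -189 and -579 bp at Mpo, and -74, -8 and 232 bp at Ctsg.

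Mpo (chromosome 11, 87793784 to 87804412) was the gene whose promoter had a peak in both LSC libraries and in neither HSC library, a pattern that 1.53% of all genes showed. In LSC replicate 1 the peak covered the whole 300-base window, from -259 to +170 bp, with a fold of 75.4 (rank 2524, pileup 411), the strongest peak of the 10 genes in that library. In LSC replicate 2 a peak from -736 to -107 bp had a fold of 11.0 (rank 65977, pileup 51) and was not listed. The nearest HSC peak to the start site was in HSC replicate 2, from +854 to +1535 bp with a fold of 6.92 (rank 107282), and in HSC replicate 1 it began at +4418 bp with a fold of 10.1. The LSC summits at -189 and -579 bp were apart, and 1 of the 2 LSC peaks was weak, so with 2 libraries a group this contrast was not tested.

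Elsewhere in the Mpo window the listed peaks lay in other genes. LSC replicate 2 had one in Lpo, the neighbouring lactoperoxidase gene (fold 22.2, rank 9636), LSC replicate 1 one in Lpo (39.9, rank 10332) and one in Tspoap1 (34.4, rank 13352), and HSC replicate 2 one in Tspoap1 (20.4, rank 3458). Mpo was therefore listed in HSC replicate 2 through a peak that began at -9676 bp. With flanks of 5 kb, Mpo was listed in both LSC libraries and in neither HSC library, the 1 gene of the 10 with that pattern. In LSC replicate 2 this call rested on the peak in Lpo and not on the Mpo promoter. The share of all genes with this pattern was taken with 10 kb flanks alone, where it was 2.88%, so the call has no share beside it.

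Ctsg (chromosome 14, 56099885 to 56102574, minus strand) was the member with the most regular start-site peak. A listed peak covered its whole promoter window in LSC replicate 2, with a fold of 34.3 (rank 2602, pileup 161, width 2059 bp), in HSC replicate 1, with 24.6 (rank 16915, pileup 89, width 363 bp), and in HSC replicate 2, with 15.9 (rank 8286, pileup 84, width 962 bp). LSC replicate 1 had a peak just inside the gene, from +77 to +494 bp, with a fold of 14.8 (rank 74944), which was not listed. The 4 summits at Ctsg lay within 306 bp of each other. The listed peak of LSC replicate 1 was at the other end, from +3108 to +3432 bp, past the 3′ end of Ctsg (fold 53.3, rank 6223). A second region, from -3983 to -2514 bp, held peaks in all 4 libraries and was listed in LSC replicate 2 alone (fold 19.7, rank 15453).

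**Figure D3:**
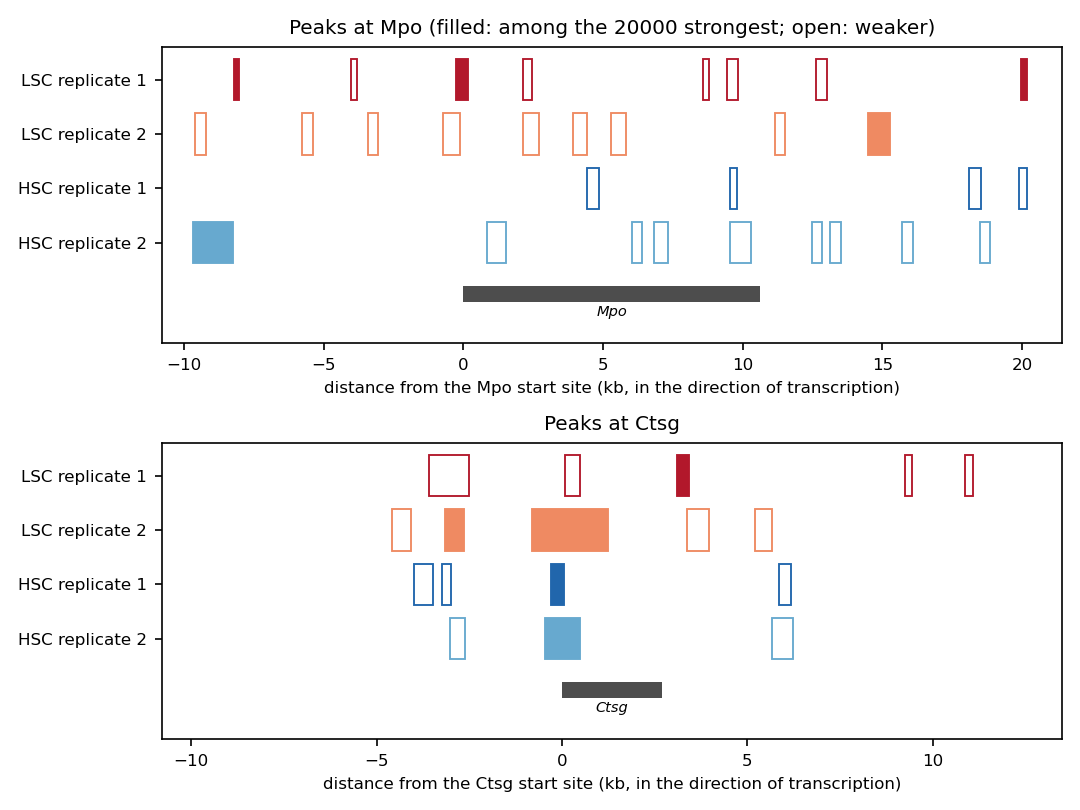
Peaks of the 4 libraries at Mpo and at Ctsg by distance from each start site (kb), filled where among the 20000 strongest of the library and open where weaker, with the gene body as a grey bar. At the Mpo start both LSC rows have a box (filled in replicate 1) and both HSC rows have none, while at the Ctsg start 3 rows have a filled box and LSC replicate 1 an open one just inside the gene.

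The secondary granule genes had fewer listed peaks, and these lay apart in the libraries. At Camp (chromosome 9, 109847377 to 109849456, minus strand), LSC replicate 1 had a listed peak over the 3′ end, from +1874 to +2692 bp, with a fold of 60.0 (rank 4852, pileup 327), while HSC replicate 1 had one from -4945 to -4509 bp, with a fold of 44.6 (rank 3730, pileup 162). HSC replicate 2 had weak peaks at both places (fold 4.49 each), and its strongest peak in the window had a fold of 12.0 (rank 25202). LSC replicate 2 had none in the 22080 bp window. At Ltf (chromosome 9, 111019292 to 111042766), LSC replicate 1 had listed peaks from -4584 to -4317 bp (fold 30.4, rank 17106) and from +28142 to +28533 bp (fold 43.9, rank 8777), beyond the gene's 3′ end. The listed Ltf peak of HSC replicate 1 (fold 27.1, rank 14127) began at -10121 bp, at the very edge of the window. In the replicate 2 libraries the strongest Ltf peak ranked 72632 in LSC and 34614 in HSC. No region of Camp or Ltf was listed in more than 1 library, and no library had a peak over either promoter.

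Set side by side, the primary genes had a listed share of 100% in LSC replicates 1 and 2, against 75% and 100% in HSC replicates 1 and 2, and the secondary genes 100% and 0% in LSC, against 100% and 0% in HSC. Primary minus secondary was 0 and 100 percentage points in LSC and -25 and 100 in HSC, with a mean of 43.8 over the 4 libraries. With only peaks that lie within 10 kb of no other gene the mean was -12.5. Under that setting Mpo and the close neighbours Elane and Prtn3 were listed in 0 libraries, so Ctsg was the only primary gene left. The order of the classes thus went with the replicate number and not with the cell type. In the median share of the window covered by peaks, primary genes were above secondary genes in all 4 libraries: 13.0% against 6.48% in LSC replicate 1, 20.7% against 2.61% in LSC replicate 2, 11.3% against 5.54% in HSC replicate 1 and 29.3% against 15.0% in HSC replicate 2. Without Elane and Prtn3 the order did not hold in every library. Mpo and Ctsg were covered to 7.65% and 9.68% in LSC replicate 1, 14.9% and 18.3% in LSC replicate 2, 4.46% and 6.34% in HSC replicate 1 and 17.0% and 8.42% in HSC replicate 2, so both were above the secondary median in the LSC libraries and 1 of the 2 was below it in each HSC library. With 4 primary genes at 3 loci and 2 secondary genes, this is a description and was not tested.

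**Figure D4:**
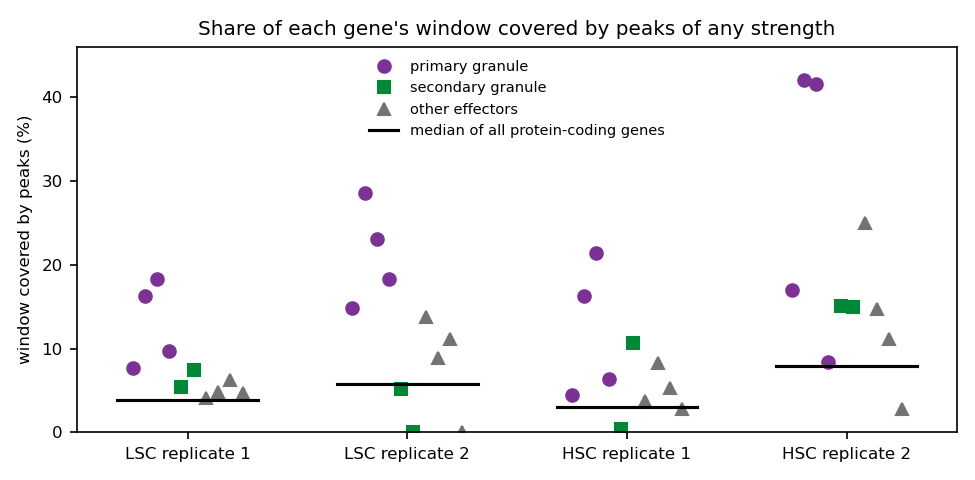
Share of each gene's window (gene body and 10 kb flanks) covered by peaks of any strength, in percent, for the 10 genes in each of the 4 libraries, with the black line at the median of all protein-coding genes. The purple points of Elane and Prtn3 are the highest of each library, between 16.3% and 42.0%, and both secondary genes (green) stand above the line in LSC replicate 1 and HSC replicate 2.

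The other effectors differed from both classes. Lyz2 (chromosome 10, 117277541 to 117282272, minus strand) was listed in LSC replicate 2, HSC replicate 1 and HSC replicate 2. A region from -3957 to -2621 bp was listed in both replicate 2 libraries, with folds of 23.7 (rank 7522) in LSC and 13.7 (rank 14868) in HSC. A region from -6765 to -5918 bp, inside the neighbouring lysozyme gene Lyz1, was listed in LSC replicate 2 (fold 26.7, rank 5207) and HSC replicate 1 (fold 34.7, rank 8434). Lyz1 and Lyz2 are close copies, and how reads with several matches were placed is not given in the sources used here, so peaks of these genes are uncertain. LSC replicate 2 had a further listed peak from +8049 to +8617 bp (rank 15938). In LSC replicate 1 the strongest Lyz2 peak ranked 169623.

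S100a8 and S100a9, neighbours on chromosome 3, were listed in LSC replicate 1 alone. The S100a8 peak (fold 52.2, rank 6450) lay from -9801 to -9056 bp in a region that held unlisted peaks in the other 3 libraries, with folds of 4.24 in LSC replicate 2, 10.1 in HSC replicate 1 and 9.36 in HSC replicate 2. The S100a9 peak (fold 45.6, rank 8229) lay from +8853 to +9309 bp, where no other library had a peak. At the S100a9 promoter both replicate 2 libraries had weak peaks, with folds of 6.99 (rank 147315) in LSC and 11.0 (rank 33833) in HSC, and neither replicate 1 library had one. Ms4a3 (chromosome 19, 11629499 to 11640851, minus strand) was listed in 0 libraries. Its strongest peak had a fold of 14.3 (rank 79556) in LSC replicate 1, against 17.2 (rank 44571) in HSC replicate 1 and 9.17 (rank 62331) in HSC replicate 2.

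**Figure D5:**
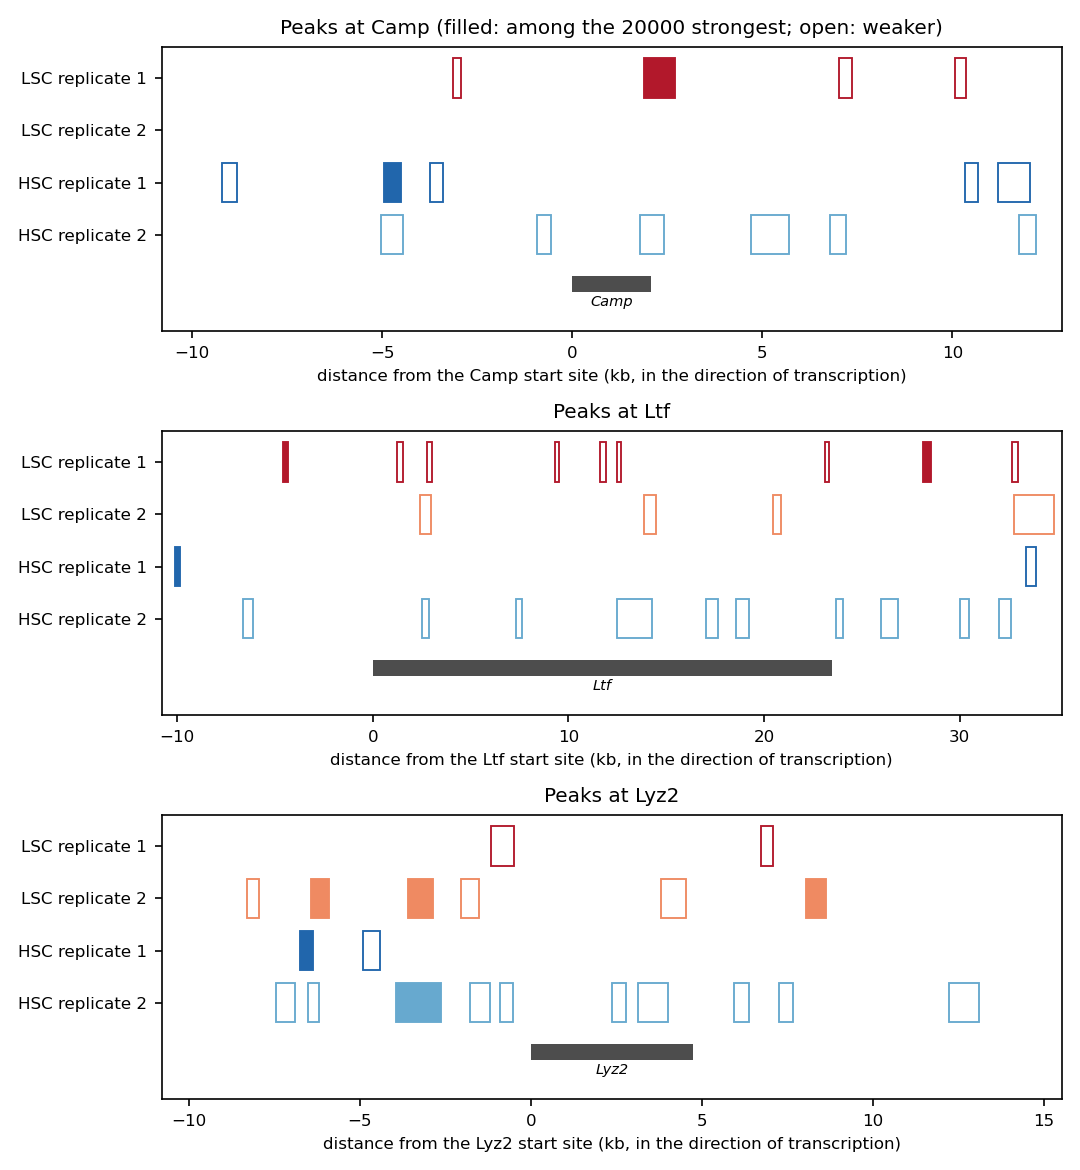
Peaks of the 4 libraries at Camp, Ltf and Lyz2 by distance from each start site (kb), filled where among the 20000 strongest of the library and open where weaker, with the gene body as a grey bar. The Camp row of LSC replicate 2 is empty, and filled boxes of Camp and Ltf occur in the replicate 1 rows alone and at different places. Before the Lyz2 start site, a filled box of LSC replicate 2 overlaps that of HSC replicate 2. Farther out, another filled box of LSC replicate 2 overlaps that of HSC replicate 1.

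Over the 10 windows the 4 lists held 183 distinct peaks, 42 of them listed: 13 and 12 in LSC replicates 1 and 2 and 8 and 9 in HSC replicates 1 and 2. Of the 42, 4 had their summit in the body of one of the 10 genes (3 in Prtn3 and 1 in Ctsg), and 13 overlapped the body of a protein-coding gene outside the 10. Merged by overlap, the peaks formed 113 regions, and 71 of them (62.8%) came from 1 library while 5 (4.42%) came from all 4. Over the whole genome, 721154 regions formed, with 84.2% from 1 library and 0.595% from all 4. These whole-genome regions were not limited to gene windows, and no share for the windows of other genes was taken, so the 2 sets are unlike. The 5 regions were the 2 at Prtn3 and Elane, the 2 at Ctsg and the one before S100a8. Such regions are chains of overlapping peaks, so all 4 libraries need not cover the same bases. The bases covered in all 4 numbered 352 and 7 at Prtn3 and Elane, and 215 before S100a8. At Ctsg they numbered 0 in the region at the start site and 9 in the region before it. Regions of both LSC libraries and no HSC library numbered 5, those of both HSC libraries and no LSC library 3, those of both replicate 1 libraries alone 2 and those of both replicate 2 libraries alone 7. Over the whole genome these patterns made up 1.88%, 2.06%, 1.28% and 3.47% of regions in the same order.

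Further granule genes were taken from lists of known content, and their counts are to be read against the 44.3% and 52.0% of all genes listed in LSC replicates 1 and 2 and the 42.2% and 51.8% in HSC replicates 1 and 2, with 2.88% in both LSC and neither HSC library. None of these lists was tested. Other genes of primary granules and their processing were listed in 3 and 6 of 8 cases in LSC replicates 1 and 2, against 6 and 7 in HSC replicates 1 and 2. Srgn, the proteoglycan core that packs granule proteins, and the lysosomal enzyme gene Gusb were listed in all 4 libraries, and the protease gene Prss57 and Cd63 in 3. Of the other secondary granule genes, 3 and 5 of 9 were listed in LSC, against 5 and 6 in HSC, with Hp (haptoglobin) in all 4 and Lcn2 (lipocalin 2), Ngp and Cyba in 3. Genes of tertiary granules and secretory vesicles were listed in 5 and 4 of 9 cases in LSC, against 5 and 4 in HSC, with Mmp9 (gelatinase B) and the metal transporter gene Slc11a1 in all 4 and Mmp25 in 3. Macrophage and monocyte effectors were listed in 5 and 7 of 9 cases in LSC, against 6 and 7 in HSC, with Cd68, Fcgr3 and Irf8 in all 4 and Cst3 and Lyz1 in 3. In those 3 libraries Lyz1 had the same best ranks as its neighbour Lyz2 (5207, 8434 and 14868), so it is not a further locus. Cathepsin S (Ctss) was the 1 gene of these lists in both LSC and neither HSC library, with ranks of 1792 and 15669 in LSC replicates 1 and 2, against 33024 and 24634 in HSC replicates 1 and 2. Genes of other tissues, such as Alb and Ins2, were listed in 3 and 4 of 10 cases in LSC, against 2 and 0 in HSC, with Gfap and Prm1 in both LSC and neither HSC library. Gfap was listed in LSC replicate 2 (rank 19978) by the order of ties alone.

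Among the 3 genes listed in all 4 libraries, Elane and Prtn3 shared their best peak in 3 libraries and Elane stood ahead in LSC replicate 1 alone, while Ctsg (rank 2602) stood ahead of both in LSC replicate 2. Of the 5 genes outside the 10 with best ranks nearest to those of Elane, 4 were Lrrc41, Mepce, Ppp1r35 and Jph3, whose ranks differed from those of Elane by at most 0.105, 0.160, 0.160 and 0.199 on the log10 scale. Mepce and Ppp1r35 are neighbours with the same best ranks, so they count as 1 locus.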

How the data were processed

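CUT&Tag peak lists of 2 LSC and 2 HSC libraries were used, grouped by sample title. Per the labels, libraries came from 2000 to 5000 cells and 17 to 20 PCR cycles. Per the submitters' processing notes, FastQC 0.11.5, Bowtie2 2.2.9, MACS2, ChIPseeker and the build mm10 were used. For caller settings and duplicate handling, nothing is stated in the labels. Peaks were called per library. The deposited score is 10 times −log10 q. The deposited fold is the summit pileup over the library's background, and the significance columns, also by the authors, give −log10 p and −log10 q of that pileup.

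Peaks of chromosomes 1 to 19 and both sex chromosomes were ranked by −log10 p, with ties broken by position, and overlap meant at least 1 bp. Pileups were recovered from fold as whole numbers (within 0.05) for 100% of peaks with a −log10 p under 200. They are not independent molecules. Gene positions and promoters came from RefSeq (GRCm38.p6), with 17492 of 21887 genes having a promoter entry; where none began at the gene's 5′ end, the first was used. Python 3.11.15, pandas 2.3.3 and numpy 2.4.6 were used, and the overlap code was tested on simulated data. Named genes were the 10 members, other granule genes listed in 3 or more libraries or in 1 group only, and genes of similar ranks; not every gene this rule names is reported here. The members, lists and motifs were chosen with earlier results of these data known. Alternatives varied list length, window, overlap, width, shared peaks, ties and libraries. Replicate numbers are not stated to pair samples.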

Additional observations from a re-analysis of the deposited data

How the results depend on the processing

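Ranking by fold gave the same order of peaks in every library, so that setting could not change the results. Requiring 50% of the peak or its summit in the window left the results within 1.5 times or within the spread between libraries. So did adding or dropping ties with the weakest listed peak (2 settings chosen after seeing the data). The 3 genes listed in all 4 libraries became 8 with the full lists, 0 with the gene body alone, and 1 (Ctsg) both within 1 kb of the gene ends and with peaks within 10 kb of no other gene. The 0 genes listed in both LSC and neither HSC library became 1 (Mpo) with 5 kb flanks, in LSC replicate 2 through the peak in Lpo. The LSC minus HSC difference of 1 gene became -1 with the full lists, -1.5 with the 40000 strongest peaks, and 2.5 with the 10000 strongest and with peaks at least 2 times the shortest. Leaving out a library in turn gave 3 to 4 genes in all 4 (or all 3 remaining) libraries, 0 to 2 in LSC only (Mpo without HSC replicate 2, S100a8 and S100a9 without LSC replicate 2), 0 to 1 in HSC only (Lyz2 without LSC replicate 2), an LSC minus HSC difference of -0.5 (without LSC replicate 1) to 2.5 (without LSC replicate 2), and primary minus secondary of 25 (without either LSC replicate 2 or HSC replicate 2) to 66.7 points (without HSC replicate 1). Primary minus secondary was 50 points with the 10000 strongest peaks, 25 with the 40000 strongest and 12.5 with the full lists. With peaks within 10 kb of no other gene, primary minus secondary was -12.5 points. Under that setting Mpo, Elane and Prtn3 were listed in 0 libraries, and Ctsg was the only primary gene left. With the replicate block, LSC minus HSC was 2 genes at replicate number 1 and 0 at number 2, and the blocked mean was 1, as without it. Of 130 values of single genes under the settings that keep all libraries, 96 stayed within 1.5 times and 34 did not, and the cause was not tested. Depth is unknown, so a missing peak does not show that signal is absent.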
